A study of Homo sapiens with 6 samples.

Results

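The 30 genes described here encode the enzymes of the mevalonate and sterol pathway, the proteins that switch the pathway on and off, and proteins of lipoprotein uptake and intracellular cholesterol handling. They were chosen by name, from what the genes are known to do, and with earlier results of these data known. Each was found by its symbol among the 21619 entries of the deposited count table. All 30 passed the low-count filter that kept 14322 entries for testing. The 19 synthesis genes were taken in pathway order, 8 from the thiolase step to the prenyl diphosphates and 11 from squalene to cholesterol, followed by 4 genes of SREBP2 control and 7 of uptake and trafficking. PolyA RNA was sequenced from HT1080, a human fibrosarcoma cell line, in 3 libraries of cells labelled wild type (WT) and 3 libraries of cells that stably overexpress PGK1, a glycolytic kinase (PGK1_OE). No other treatment is given for either group, and the series asks what PGK1 does in these cells. The labels leave out the vector, its promoter and whether the overexpressing line is a clone or a pool, and do not say whether WT cells carry an empty vector. Nor do the labels say whether replicates were separate cultures, so every p-value below is set against a spread among libraries that may be purely technical.

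Libraries held between 34425162 and 40538274 counts, the fewest in WT replicate 2. PGK1 stood at 519 to 527 CPM (counts scaled to the normalised library size) in WT and at 12200 to 13300 CPM in PGK1_OE, in the direction of the labels. All 7 mesenchymal markers were detected, with summed FPKM (the authors' levels per gene length and library size, as deposited) of 2240 to 2530 in WT and 3690 to 3850 in PGK1_OE. Summed FPKM stayed at or under 1.07 in every library for the 4 epithelial, 4 haematopoietic and 3 hepatocyte markers. EPCAM, KRT5, PTPRC, CD14 and ALB were at 0 counts throughout. CDH1 had 17, 28 and 16 counts in WT and 0 in each PGK1_OE library. The 3 endothelial markers summed to 0.625 to 0.717 in WT and 1.63 to 2.47 in PGK1_OE, a difference that came from PECAM1, at 0.434 ± 0.0985 FPKM in WT and 1.92 ± 0.407 FPKM in PGK1_OE. The means of VWF (0.148 and 0.0868 FPKM) and CDH5 (0.0884 and 0.0239 FPKM) were lower in PGK1_OE.

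Cells make cholesterol from acetyl-CoA through mevalonate, a route that also yields the prenyl groups attached to small GTPases, dolichol and the tail of coenzyme Q. When the membrane of the endoplasmic reticulum is short of cholesterol, SCAP escorts the membrane-bound transcription factor SREBP2 to the Golgi, where proteases release its active part. When sterols are plentiful, INSIG proteins hold SCAP and SREBP2 back, and LXR receptors, which sense oxysterols, raise genes of cholesterol export. Active SREBP2 binds sterol regulatory elements (SREs) in promoters of pathway genes, usually beside CCAAT boxes bound by NF-Y and GC boxes bound by SP1.

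Promoters were examined because most of the synthesis genes moved together. RefSeq windows on GRCh38.p14 ran from 250 bases before to 50 after an annotated start. They were matched by symbol for 27 of the 30 members, and ACAT2, FDFT1 and SQLE had none. The match gave 36 windows, several of them alternative starts of 1 gene that overlap. The 250 bases before the start are printed for 5 members, 5′ to 3′ on the gene's own strand, with CCAAT boxes (CCAAT) and SRE cores (CACNCCAC) in capitals on either strand. HMGCS1 is shown for the largest rise among the members (chr5:43313413-43313662, minus strand), NSDHL for its many CCAAT boxes (chrX:152830813-152831062, plus strand), INSIG1 and INSIG2 as a pair of paralogs with unequal rises (chr7:155297628-155297877 and chr2:118088221-118088470, both plus strand), and SREBF2 as the regulator itself (chr22:41832855-41833104, plus strand).
HMGCS1: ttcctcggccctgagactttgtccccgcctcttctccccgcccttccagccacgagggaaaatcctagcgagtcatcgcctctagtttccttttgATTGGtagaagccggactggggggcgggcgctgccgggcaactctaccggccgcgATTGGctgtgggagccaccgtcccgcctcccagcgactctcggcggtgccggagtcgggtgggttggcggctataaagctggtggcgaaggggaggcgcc
NSDHL: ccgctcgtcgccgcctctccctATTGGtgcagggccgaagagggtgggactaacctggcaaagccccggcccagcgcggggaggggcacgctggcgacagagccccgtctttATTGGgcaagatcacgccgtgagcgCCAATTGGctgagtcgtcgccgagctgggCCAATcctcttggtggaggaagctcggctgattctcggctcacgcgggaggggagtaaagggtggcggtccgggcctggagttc
INSIG1: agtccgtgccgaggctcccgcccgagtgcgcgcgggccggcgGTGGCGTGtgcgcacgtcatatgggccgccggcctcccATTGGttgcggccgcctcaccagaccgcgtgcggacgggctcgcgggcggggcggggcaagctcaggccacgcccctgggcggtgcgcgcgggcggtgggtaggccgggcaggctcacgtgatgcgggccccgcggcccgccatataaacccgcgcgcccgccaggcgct
INSIG2: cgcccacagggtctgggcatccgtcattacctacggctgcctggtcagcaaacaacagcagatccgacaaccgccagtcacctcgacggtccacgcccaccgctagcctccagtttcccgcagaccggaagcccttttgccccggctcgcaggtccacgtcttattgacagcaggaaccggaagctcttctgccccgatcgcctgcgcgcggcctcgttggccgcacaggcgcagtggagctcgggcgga
SREBF2: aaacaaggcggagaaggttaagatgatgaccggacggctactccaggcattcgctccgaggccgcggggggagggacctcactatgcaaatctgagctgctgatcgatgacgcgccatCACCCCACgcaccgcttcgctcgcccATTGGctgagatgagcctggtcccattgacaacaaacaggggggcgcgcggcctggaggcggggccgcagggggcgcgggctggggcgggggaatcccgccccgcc

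The longer SRE motif TCACNCCAC, searched on both strands and containing the core, was found in 1 of 36 member windows, that of SREBF2, and in 1.13% of all 35116 windows of the same length. The core CACNCCAC was found in 5 member windows, of IDI1, SC5D, SREBF2 and INSIG1, where 2 overlapping windows of SC5D share 1 site. That is 13.9% of member windows against 5.87% of all windows and 5.92% of the windows of genes tested in these libraries. By gene it was 4 of 27 members (14.8%) against 7.91% of tested genes. CCAAT boxes were more widespread. They stood in 16 of 23 windows of synthesis genes (69.6%), against 35.0% of the windows of tested genes and 34.6% of all windows. Of the 16 synthesis genes with a window 14 had at least 1 box, compared with 43.7% of 10828 tested genes. MVK and NSDHL had 5 boxes each, where a palindrome in NSDHL, read on both strands, gives 2 of its 5. The same palindrome gives 2 of the 3 boxes in window 2 of IDI1. Windows with 3 or more boxes, that of IDI1 included, made up 30.4% of the synthesis windows and 4.09% of those of tested genes. INSIG1 had 1 CCAAT box and 1 SRE core, and neither window of INSIG2 had any. The boxes did not follow the direction of change gene by gene. GGPS1 (in window 2 of 3), MYLIP and SOAT1, which fell, had at least 1. PMVK, CYP51A1, INSIG2, VLDLR and LRP8, which rose, had none in their windows, nor had NPC1, which fell. GC boxes (GGGCGG, both strands) were in 87.0% of synthesis windows and in 63.8% of the windows of tested genes. These are matches of letters within short windows and say nothing of binding. Sites that differ from the letters searched, or that lie outside the windows, were not counted.

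**Figure D1:**
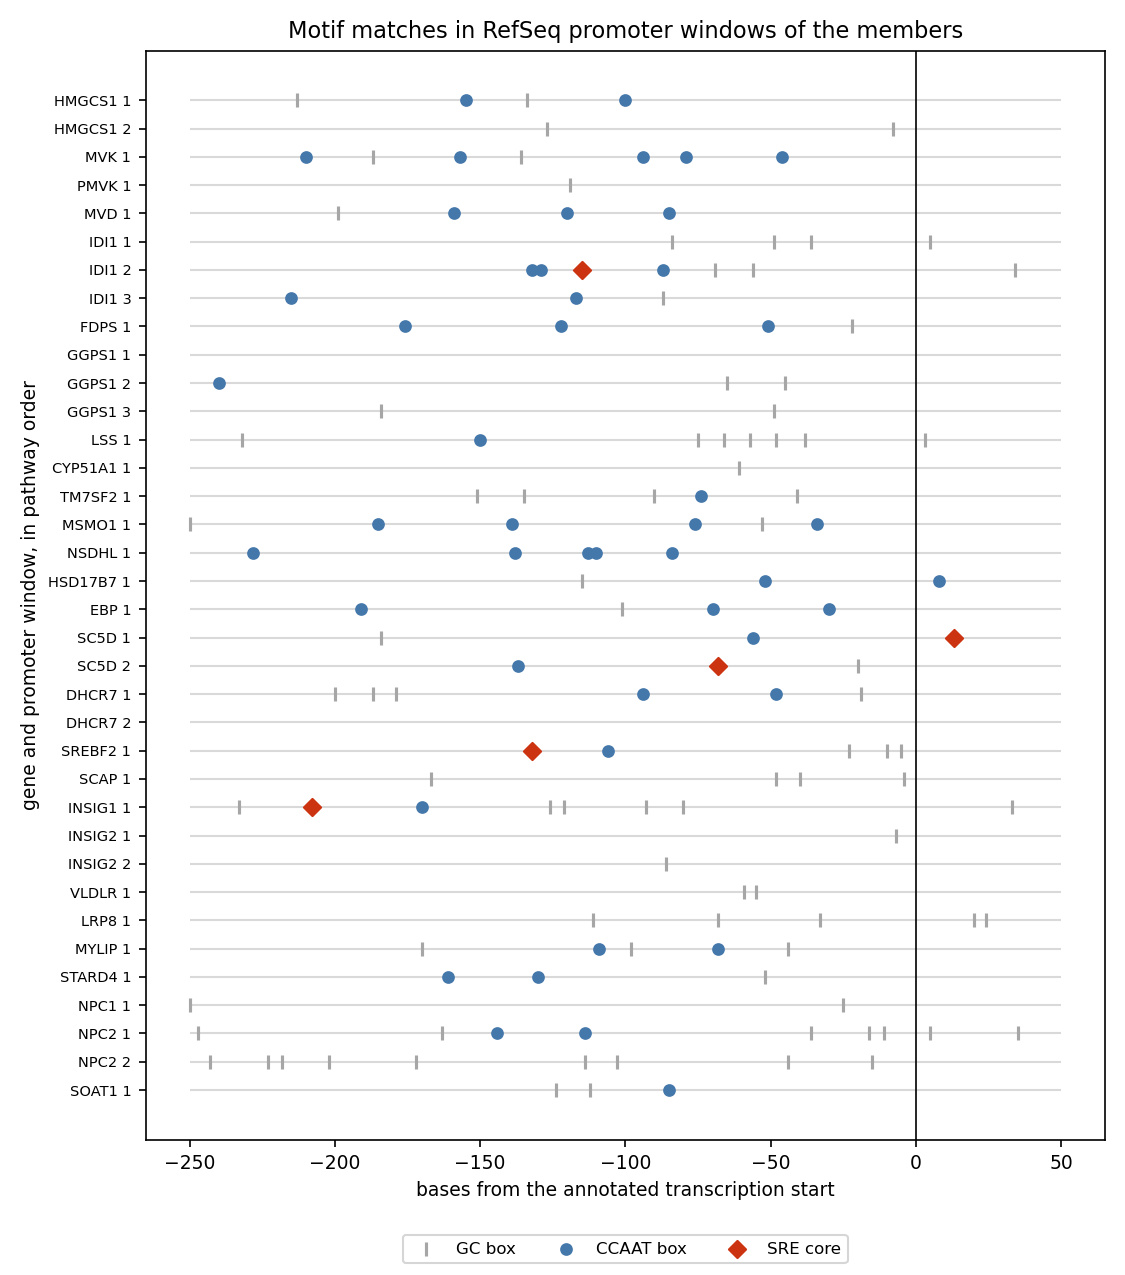
Positions of GC boxes (grey bars), CCAAT boxes (blue circles) and SRE cores (red diamonds) in the 36 promoter windows of 27 members, in bases from the annotated start, with 1 row per window in pathway order. CCAAT boxes crowd the windows of MVK, MVD, IDI1, FDPS, MSMO1, NSDHL and EBP, and none is drawn for PMVK, CYP51A1, SCAP, INSIG2, VLDLR, LRP8 or NPC1. ACAT2, FDFT1 and SQLE had no window and have no row.

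Most of the pathway was higher in cells overexpressing PGK1. Of the 30 members 23 rose, 4 fell and 3 did not pass (edgeR quasi-likelihood test, Benjamini-Hochberg adjusted p under 0.05 over all entries tested). Changes were common in these cells: 71.2% of all entries tested passed, 35.4% upward and 35.8% downward. The 27 of 30 members that passed in either direction are read against that background, and 23 of the 27 were higher. Rises of 2-fold or more numbered 16 among the 30 members, against 12.0% of all entries, and no member fell by that much, against 12.1%. The median log2 fold change was 1.17 over the members and -0.02 over all entries tested. Because members were chosen with earlier results of these data known, these contrasts with all entries are description and not a test. In all 23 genes that rose, every PGK1_OE library lay above every WT library in CPM, as was the case for 37.9% of all entries, and for 5 members every PGK1_OE library lay below (38.5% of all entries). SREBF2 and SCAP were the members whose groups overlapped.

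By role, the prenyl chain had a median of 1.99 on the log2 scale (7 of 8 genes rose and 1 fell), and the sterol steps 1.82 (10 of 11 rose and none fell). The SREBP2 control genes had a median of 0.26, with 2 of 4 rising, and the uptake and trafficking genes 0.62, with 4 of 7 rising and 3 falling. The differences between these classes were not tested.

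**Figure D2:**
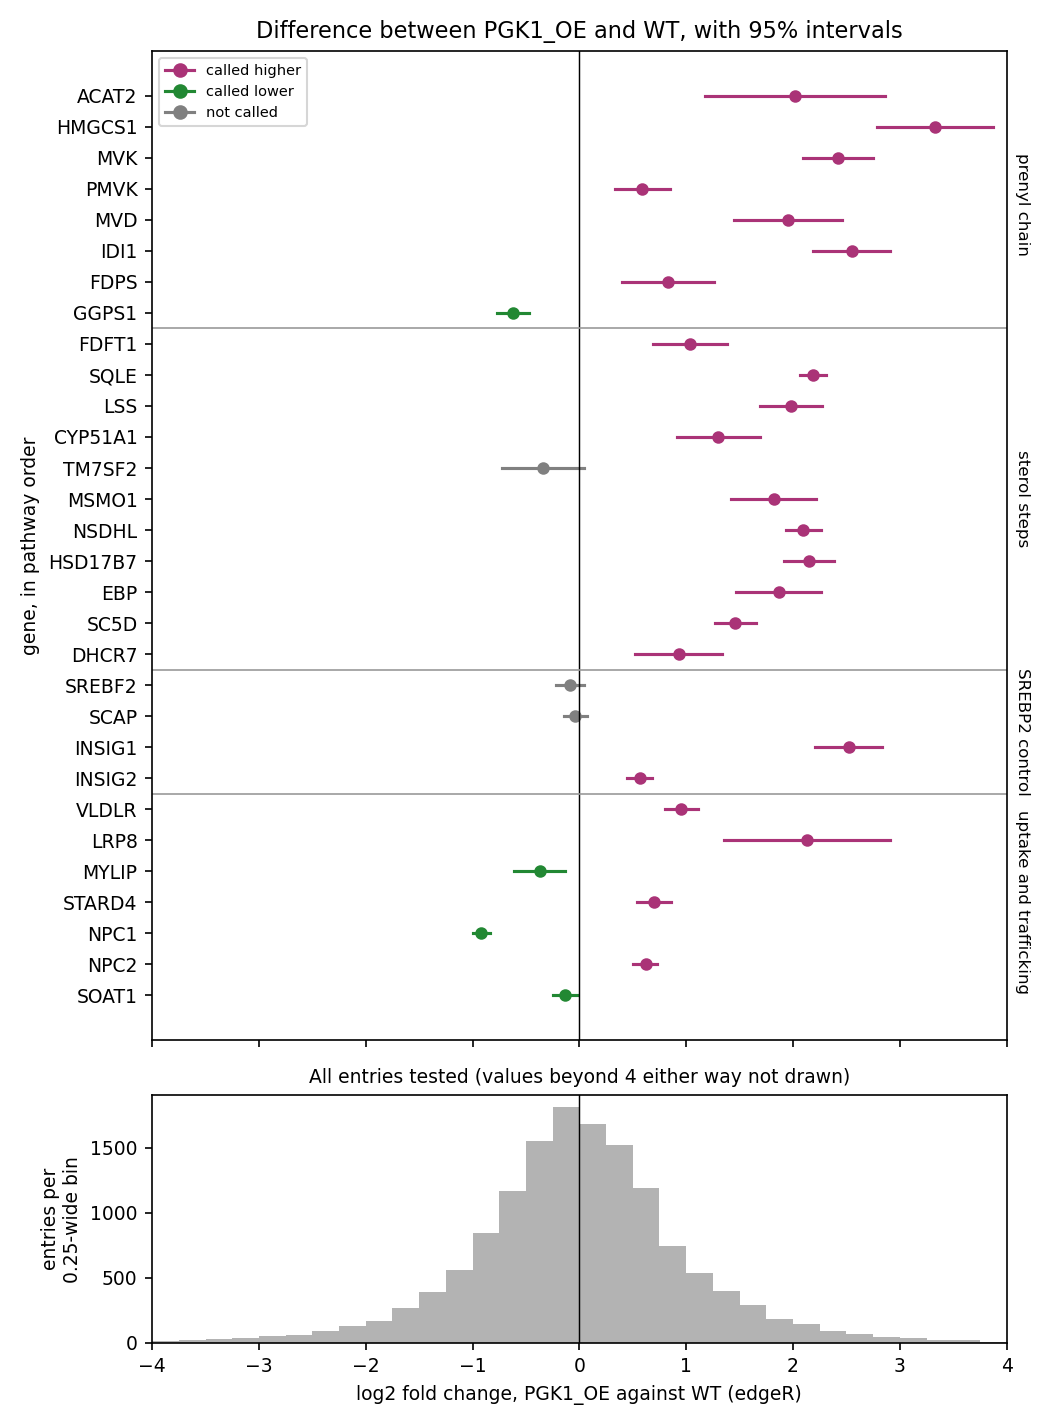
Log2 fold change of PGK1_OE against WT for each member with its 95% interval from edgeR (top), above the histogram of all entries tested (bottom). Synthesis genes other than GGPS1 and TM7SF2 lie between 0.59 and 3.33, while the 4 control genes and 7 uptake genes spread on both sides of 0.

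The prenyl chain starts with ACAT2, the cytosolic thiolase that joins acetyl-CoA units, and HMGCS1, the synthase that makes HMG-CoA. HMGCS1 stood at 48.7, 32.0 and 44.4 CPM in WT replicates 1, 2 and 3 and at 368, 454 and 436 CPM in PGK1_OE replicates 1, 2 and 3. It was the member with the largest rise, 10.0-fold (log2 fold change 3.33, SE 0.20, edgeR adjusted p = 1.01e-04), higher than 99.5% of all entries tested. ACAT2 stood at 60.4, 31.9 and 65.5 CPM in WT and at 200, 223 and 218 CPM in PGK1_OE (2.02, SE 0.31, edgeR adjusted p = 0.00407). WT replicate 2 was far below the other WT libraries for ACAT2, and all WT values were below all PGK1_OE values. The annotated exons of ACAT2 overlap those of TCP1 and SOD2 on the opposite strand, so its counts may include reads of those genes.

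Mevalonate is phosphorylated by MVK and then PMVK, decarboxylated by MVD and isomerised by IDI1. MVK stood at 8.89, 7.39 and 11.3 CPM in WT and at 50.1, 51.0 and 46.8 CPM in PGK1_OE (2.42, SE 0.14, edgeR adjusted p = 1.01e-06). IDI1 stood at 62.7, 49.9 and 70.0 CPM in WT and at 335, 379 and 359 CPM in PGK1_OE (2.55, SE 0.14, edgeR adjusted p = 2.70e-05). MVD rose from 15.9 ± 3.75 to 61.7 ± 6.22 CPM (mean ± SD of 3 libraries, as for all such values here), a log2 fold change of 1.95. PMVK, which acts between MVK and MVD, changed far less than its neighbours. It stood at 7.76, 9.99 and 8.39 CPM in WT and at 12.7, 13.2 and 13.5 CPM in PGK1_OE (0.59, SE 0.12, edgeR adjusted p = 8.42e-04), with a 95% interval of 0.33 to 0.85 that lies below those of MVK (2.09 to 2.75) and MVD (1.45 to 2.46). The exons of MVK overlap MMAB on the opposite strand.

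FDPS makes farnesyl diphosphate, the branch point of the pathway, and GGPS1 extends it to geranylgeranyl diphosphate for protein prenylation. FDPS rose from 130.5 ± 25.2 to 232 ± 11.5 CPM (0.83, SE 0.16, edgeR adjusted p = 0.00826). GGPS1 went the other way, from 33.6, 36.4 and 35.1 CPM in WT to 24.0, 21.3 and 23.1 CPM in PGK1_OE (-0.62, SE 0.07, edgeR adjusted p = 6.92e-06). It was the synthesis gene that fell, and its groups did not overlap. The gene lies at chr1:235327350-235344532 on the plus strand (GRCh38, GENCODE 29). Its exons overlap TBCE on the same strand and ARID4B on the opposite strand, which makes its value uncertain, and FDPS has several processed copies in the genome with which it may share reads.

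Squalene synthase FDFT1 commits farnesyl diphosphate to sterols, SQLE adds oxygen to squalene, and LSS closes the rings to lanosterol. SQLE had the smallest adjusted p of the 30 members. Its libraries stood at 51.2, 49.5 and 56.0 CPM in WT and at 225, 246 and 242 CPM in PGK1_OE, with a 95% interval of the log2 fold change of 2.07 to 2.31 (edgeR adjusted p = 4.60e-11). LSS stood at 48.5, 41.2 and 57.2 CPM in WT and at 187, 198 and 194 CPM in PGK1_OE (1.98, SE 0.12, edgeR adjusted p = 1.33e-05). FDFT1 rose less, by 1.04 on the log2 scale (SE 0.13), from 91.8 ± 14.8 to 188 ± 13.3 CPM.

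Lanosterol then loses its extra methyl groups. CYP51A1, the demethylase that removes the first, rose from 140 ± 24.1 to 345 ± 23.1 CPM (1.30, SE 0.15). The exons of CYP51A1 overlap other protein-coding entries on the same strand, so its counts may include their reads. MSMO1 and NSDHL, which act with HSD17B7 on the remaining methyl groups, and HSD17B7 itself rose more, by 1.82 (SE 0.15), 2.09 (SE 0.08) and 2.15 (SE 0.10) on the log2 scale. MSMO1 stood at 89.7, 64.0 and 90.2 CPM in WT and at 275, 300 and 287 CPM in PGK1_OE. HSD17B7 stood at 9.05, 7.39 and 8.47 CPM in WT and at 35.4, 33.6 and 41.3 CPM in PGK1_OE. TM7SF2, a sterol reductase that acts next to CYP51A1, was the synthesis gene that did not pass. It was also among the least expressed, at 6.31, 5.38 and 5.90 CPM in WT and 4.95, 3.73 and 5.22 CPM in PGK1_OE (-0.34, SE 0.17, 95% interval -0.72 to 0.04, edgeR adjusted p = 0.0978), and its exons overlap VPS51 on the same strand. On the deposited FPKM values it was called lower, with an adjusted p from limma of 0.0255 at log2(FPKM + 1). The last steps were higher as well: EBP, the sterol isomerase, by 1.87 (SE 0.16), SC5D, a desaturase, by 1.46 (SE 0.08), and DHCR7, a terminal reductase, by 0.93 (SE 0.16).

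**Figure D3:**
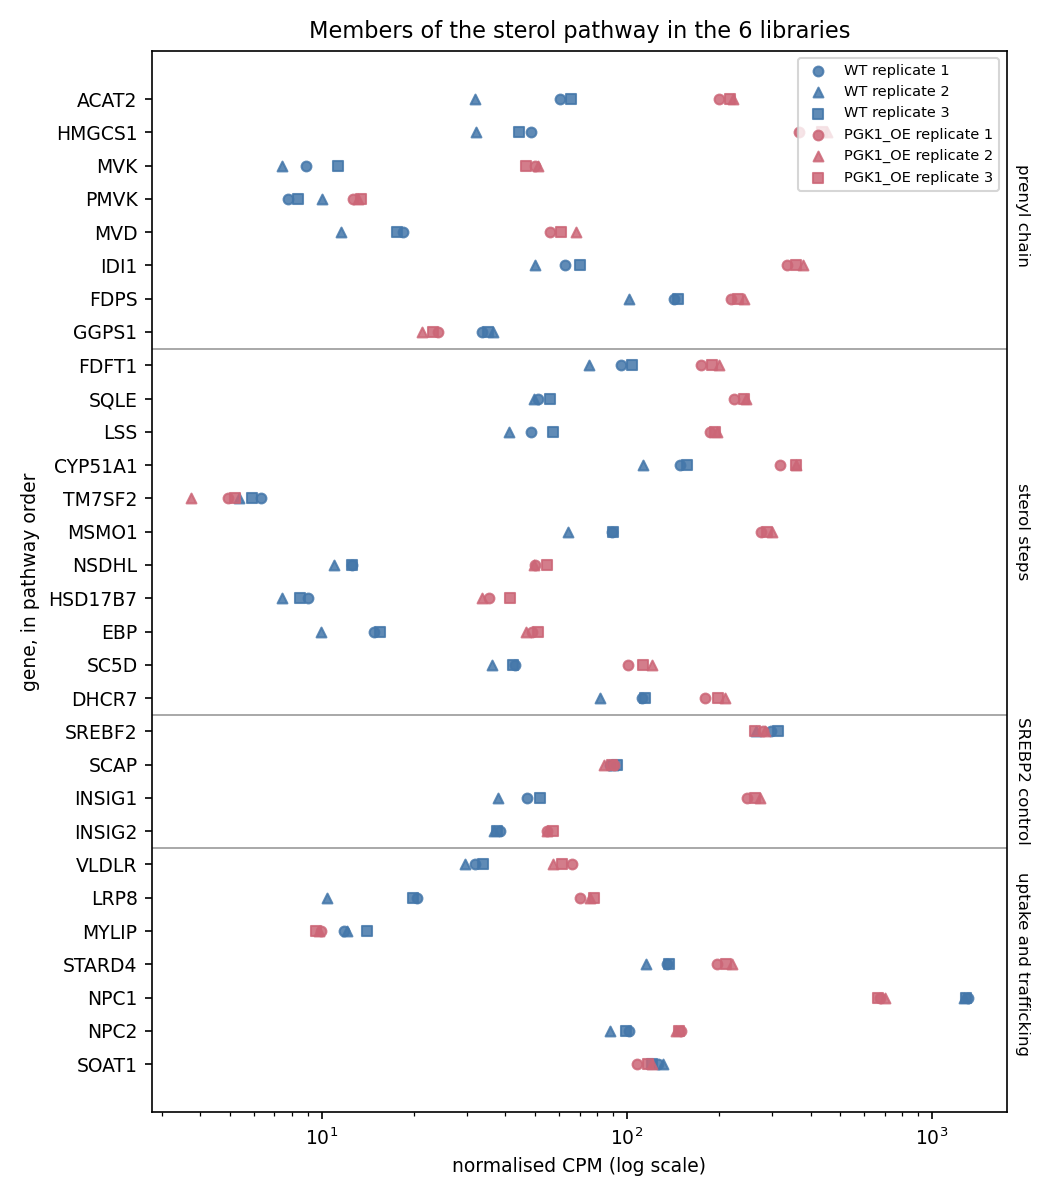
Normalised CPM of each member in each of the 6 libraries on a log axis, in pathway order, with WT in blue, PGK1_OE in red and a marker shape per replicate number. The red points lie to the right of the blue ones for 23 genes, and the WT replicate 2 triangle is the leftmost WT point in most rows.

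Levels of different genes can be set side by side only per gene length, in FPKM. The deposited FPKM were not these counts over 1 fixed length per gene. LSS, for example, stood at 48.5 and 41.2 CPM in WT replicates 1 and 2 but at 10.4 and 10.5 FPKM. Ranks and ratios in FPKM therefore need not follow the counts. Summed over the 19 synthesis genes, FPKM was 454, 349 and 477 in WT replicates 1, 2 and 3 and 1141, 1265 and 1227 in PGK1_OE replicates 1, 2 and 3. That sum made up 0.0897% to 0.123% of all FPKM in WT and 0.292% to 0.326% in PGK1_OE. FDPS was the highest synthesis gene in both groups, at 102 ± 19.2 FPKM in WT and 173 ± 9.20 FPKM in PGK1_OE. The order below it differed: HMGCS1 stood twelfth in WT at 10.2 FPKM and sixth in PGK1_OE at 101 FPKM, and MVK went from the lowest of the 19, at 3.41 FPKM, to 19.8 FPKM. GGPS1 went from ninth (14.7 FPKM) to next to last (8.96 FPKM), just above TM7SF2 (3.35 FPKM). Neighbours in these orders often differed by less than their SD, such as MVK and TM7SF2 (4.25 FPKM), FDFT1 (45.3 FPKM) and CYP51A1 (44.3 FPKM) in WT or MSMO1 (123 FPKM) and IDI1 (120 FPKM) in PGK1_OE.

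**Figure D4:**
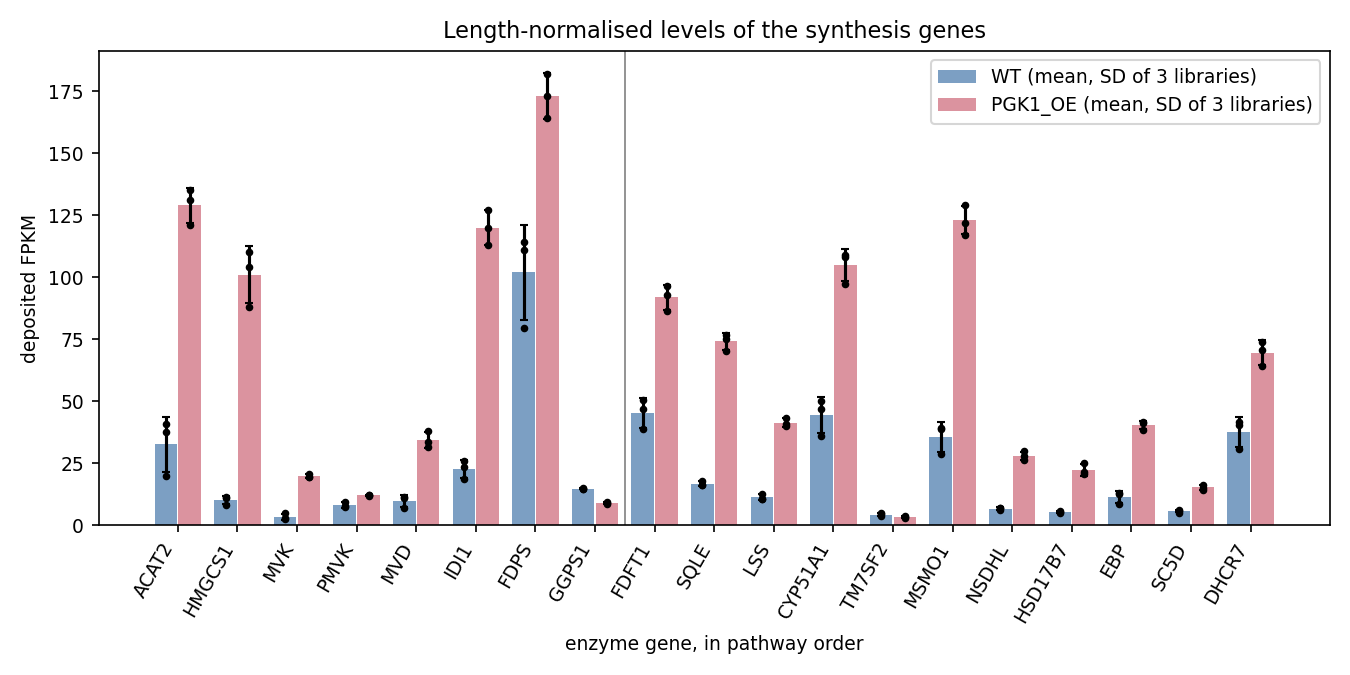
Deposited FPKM of the 19 synthesis genes in pathway order, with bars for the mean, error bars for the SD and points for the 3 libraries of each group. FDPS is highest in both groups, and the PGK1_OE bar is lower than the WT bar for GGPS1 and TM7SF2.

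The control genes behaved unevenly. INSIG1 and INSIG2 encode paralogous anchors that retain SCAP and SREBP2 in the endoplasmic reticulum, and INSIG1 is itself a classic SREBP2 target. INSIG1 stood at 47.2, 37.9 and 52.0 CPM in WT and at 247, 274 and 263 CPM in PGK1_OE (2.52, SE 0.12, edgeR adjusted p = 7.74e-06). INSIG2 stood at 38.4, 36.8 and 37.5 CPM in WT and at 54.7, 54.6 and 57.3 CPM in PGK1_OE (0.57, SE 0.05, edgeR adjusted p = 1.27e-06). Both rose without overlap of the groups, but the interval of INSIG1 (2.21 to 2.83) lies above that of INSIG2 (0.45 to 0.68). In FPKM the ratio of INSIG1 to INSIG2 was 1.70, 1.20 and 1.62 in WT and 6.04, 6.62 and 6.10 in PGK1_OE, so that every WT ratio lay below every PGK1_OE ratio. This ratio and the other ratios between genes below were chosen after the values were seen and were not tested.

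The mRNAs of SREBP2 itself and of its escort did not pass the test. SREBF2, the gene of SREBP2, stood at 297, 266 and 313 CPM in WT and at 279, 283 and 263 CPM in PGK1_OE (-0.09, SE 0.06, 95% interval -0.22 to 0.04, edgeR adjusted p = 0.212). SCAP stood at 87.9, 90.2 and 93.1 CPM in WT and at 90.7, 84.3 and 89.6 CPM in PGK1_OE (-0.04, SE 0.05, 95% interval -0.14 to 0.07, edgeR adjusted p = 0.507). The groups overlapped for both genes, and the intervals of both end below that of PMVK, the smallest rise among the synthesis genes. Without WT replicate 2 SREBF2 was called lower (-0.14, edgeR adjusted p = 0.0115), and with library totals in place of normalisation factors it was as well (-0.13, edgeR adjusted p = 0.0482). Only mRNA was measured, not the release of active SREBP2 from its precursor.

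Among receptors, LRP8 and VLDLR, which bind apolipoprotein E and reelin, both rose. LRP8 stood at 20.6, 10.4 and 19.9 CPM in WT and at 70.3, 75.6 and 78.0 CPM in PGK1_OE (2.13, SE 0.29, edgeR adjusted p = 0.00238). VLDLR stood at 31.8, 29.5 and 33.9 CPM in WT and at 66.0, 57.2 and 61.2 CPM in PGK1_OE (0.95, SE 0.07, edgeR adjusted p = 1.87e-07). In CPM WT replicate 2 was again far below the other WT libraries for LRP8, but not for VLDLR. The deposited FPKM of LRP8 in WT replicates 1, 2 and 3 were less far apart, at 3.93, 2.87 and 3.56. In FPKM LRP8 was below VLDLR in every WT library (ratio 0.697, 0.503 and 0.555) and above it in every PGK1_OE library (1.11, 1.30 and 1.36). MYLIP, a ubiquitin ligase known to send such receptors to degradation, fell from 11.8, 12.1 and 14.1 CPM to 9.95, 9.78 and 9.59 CPM (-0.37, SE 0.11, edgeR adjusted p = 0.00934). Without WT replicate 3, the highest library, that call was lost (-0.28, edgeR adjusted p = 0.0526).

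NPC1 and NPC2 hand cholesterol on out of the lysosome, NPC2 in the lumen and NPC1 in the membrane, and their mRNAs went in opposite directions. NPC1 fell from 1310, 1270 and 1290 CPM in WT to 678, 704 and 667 CPM in PGK1_OE (-0.92, SE 0.03, edgeR adjusted p = 8.15e-10). NPC2 rose from 102, 88.4 and 99.4 CPM to 151, 145 and 148 CPM (0.62, SE 0.05, edgeR adjusted p = 8.44e-07). NPC1 was the largest fall among the members, and the ratio of NPC1 to NPC2 in FPKM went from 2.31, 2.57 and 2.36 in WT to 0.843, 0.917 and 0.837 in PGK1_OE. The exons of NPC1 overlap RMC1 and those of NPC2 overlap ISCA2, each on the opposite strand.

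STARD4, a soluble carrier of cholesterol between membranes, stood at 135, 116 and 137 CPM in WT and at 198, 221 and 211 CPM in PGK1_OE (0.70, SE 0.07, edgeR adjusted p = 1.48e-05). SOAT1, which esterifies cholesterol for storage, stood at 127, 131 and 121 CPM in WT and at 108, 121 and 117 CPM in PGK1_OE (-0.13, SE 0.05, edgeR adjusted p = 0.0333). The SOAT1 groups nearly touched, and its call was lost without WT replicate 1 (edgeR adjusted p = 0.0965), WT replicate 2 (0.120), PGK1_OE replicate 1 (0.172) or PGK1_OE replicate 3 (0.0746), and with DESeq2 (adjusted p = 0.0516).

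The WT libraries differed among themselves along the same genes. WT replicate 2 was the lowest WT library for 25 of the 30 members and for 17 of the 19 synthesis genes, while it was lowest for 41.2% of all entries tested. Relative to the mean of the other WT libraries its median log2 CPM was lower by 0.41 over the synthesis genes (-0.41) and by 0.01 over all entries (-0.01). PMVK and GGPS1 were the synthesis genes for which it was the highest WT library. Because WT replicate 2 is part of the WT mean, its position is not independent of the differences between the groups. In PGK1_OE, replicate 2 was the highest library for 12 of the 19 synthesis genes and replicate 1 the lowest for 13, with median deviations of 0.08 and -0.11. WT replicate 2 also had the fewest counts of the 6 libraries, and the part of depth in this spread was not tested. Without WT replicate 2, 23 members rose and 4 fell, 15 of them rose by at least 2-fold, and the median log2 fold change over the members was 1.05.

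**Figure D5:**
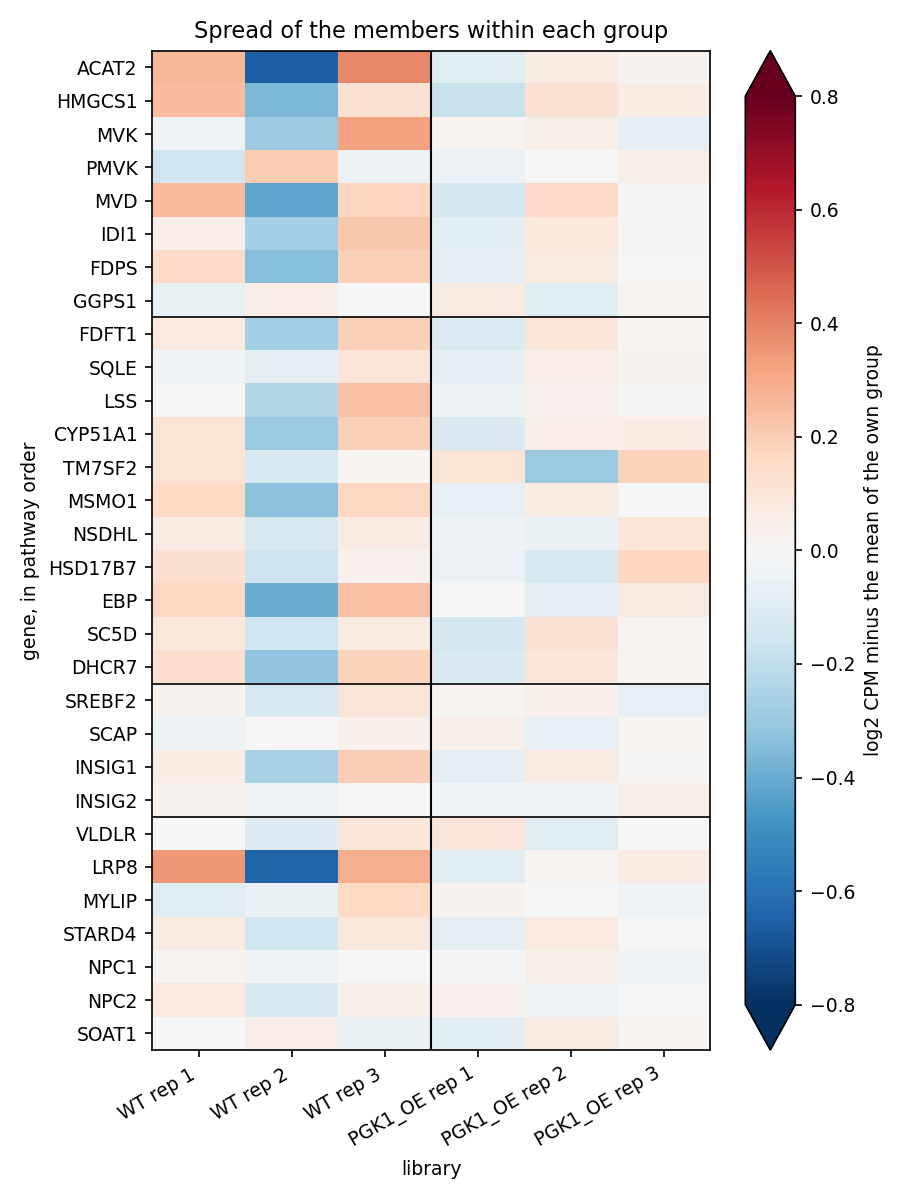
Log2 CPM of each member in each library minus the mean of its own group, in pathway order, blue where a library is below its group and red where it is above. The WT replicate 2 column is blue for most synthesis genes and for INSIG1 and LRP8, and the PGK1_OE columns are paler.

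Other genes of the pathway, from lists of known function, were counted beside the 35.4% of all entries that rose and the 35.8% that fell, and no count below is read as particular to its list. Of 10 genes that process or restrain SREBPs 4 rose, 5 fell and 1 did not pass, with a median of -0.22. MBTPS2, the protease that makes the final cut in SREBPs, fell from 90.0 ± 3.03 to 48.8 ± 1.05 CPM (-0.88, SE 0.05). RNF145, a sterol-responsive ubiquitin ligase, rose from 91.1 ± 2.58 to 165 ± 8.95 CPM (0.86, SE 0.05), and ERLIN1, a scaffold that binds cholesterol, rose by 0.45 (SE 0.04). SREBF1, the sister gene of SREBF2, was named after its values were seen, and fell from 76.7 ± 8.02 to 50.8 ± 0.645 CPM (-0.59, SE 0.07, edgeR adjusted p = 1.40e-05). MBTPS2 overlaps YY2 and ERLIN1 overlaps CHUK on the same strand, and SREBF1 overlaps RAI1 on the opposite strand.

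Of 7 related, accessory or alternative enzymes 5 were tested, of which 2 rose, 2 fell and 1 did not pass. LBR, the lamin B receptor, which can carry out the same reduction as TM7SF2, rose from 102 ± 4.69 to 180 ± 4.44 CPM (0.82, SE 0.04, edgeR adjusted p = 1.47e-08). ERG28, which tethers sterol enzymes to each other, rose from 21.9 ± 3.92 to 61.3 ± 2.60 CPM (1.48, SE 0.12), though its exons overlap TTLL5. ACAT1, the mitochondrial thiolase, fell slightly (-0.15, SE 0.04).

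Of 6 genes of LXR signalling and cholesterol efflux 3 rose, 2 fell and 1 did not pass, with a median of 0.42, the same with ABCG1 at its bound. The cholesterol exporter ABCA1, an LXR target, fell from 46.6 ± 4.43 to 19.1 ± 1.60 CPM (-1.29, SE 0.09, edgeR adjusted p = 8.66e-08). ABCG1, another exporter and LXR target, had 27, 22 and 12 counts in WT and 0 in each PGK1_OE library, which makes it at least 21.9-fold lower against a floor of 3 counts over the group, for counting error only. SCARB1, the receptor for high-density lipoprotein, rose from 23.3 ± 2.81 to 45.0 ± 3.58 CPM (0.95, SE 0.09), and NR1H2, which encodes an LXR, rose by 0.31 (SE 0.05). NR1H3, which also encodes an LXR, rose by 0.52 (SE 0.15). APOE, at 4 to 13 counts per library, did not pass (0.64, SE 0.58). Targets of LXR were not tested as a set.

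Of 14 genes of other lipoprotein receptors and of cholesterol transfer 13 were tested, of which 7 rose, 3 fell and 3 did not pass, with a median of 0.32. NCEH1, a cholesteryl ester hydrolase, rose by 0.61 (SE 0.04) and LRPAP1, a chaperone of lipoprotein receptors, by 0.67 (SE 0.05) on the log2 scale, while the sterol transfer proteins GRAMD1A (-0.63, SE 0.05) and OSBP (-0.55, SE 0.04) fell. TMEM97, a sterol-regulated partner of NPC1, was named after its values were seen, and rose from 18.1 ± 2.05 to 72.3 ± 9.23 CPM (1.99, SE 0.12), with exons that overlap IFT20 on the opposite strand.

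Among 11 genes that use prenyl diphosphates 3 rose, 4 fell and 4 did not pass, with a median of 0.12. ICMT, which methylates prenylated proteins, rose from 48.3 ± 3.65 to 211 ± 8.20 CPM (2.13, SE 0.06, edgeR adjusted p = 7.56e-11), and FNTB, the beta subunit of farnesyltransferase, rose from 9.46 ± 0.808 to 34.6 ± 3.22 CPM (1.87, SE 0.10). PGGT1B (-0.82, SE 0.07) and RABGGTB (-0.58, SE 0.06), subunits of enzymes that attach geranylgeranyl groups, fell. ICMT overlaps RNF207 on the opposite strand, and FNTB and RABGGTB overlap CHURC1-FNTB and ACADM on their own strand, so these values are uncertain.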

How the data were processed

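PolyA RNA of 6 HT1080 libraries was analysed, 3 per group, grouped by sample titles. The tools fastp and HISAT and the build hg38 are named, per the submitters' processing notes. The counter, its strand setting and the annotation were not given in the sources used here. Deposited values are raw counts of reads per gene in 1 table and, in the other, the authors' FPKM. Counts were fitted in R 4.3.3 with edgeR 4.0.16: filterByExpr, TMM scaling, a robust quasi-likelihood fit with group as the only term, two-sided tests and Benjamini-Hochberg adjustment over 14322 entries. CPM are scaled by TMM. A standard error is the absolute log2 fold change over the square root of F. Alternatives used DESeq2 1.42.0, limma 3.58.1 and others, and the steps were tested on simulated data. Members and lists were chosen with earlier results of these data known. Named genes are all members, PGK1 and, of each further list, up to 4 tested genes with the smallest adjusted p. Some genes that this rule names are not reported here. Where a symbol had several entries, that with the most counts was taken. Overlaps come from GENCODE 29 (GRCh38), not the authors' annotation. Exons of 16 members overlap another gene, 4 of them on the same strand, and those values may include its reads. CYP51A1, FDPS and HSD17B7 have pseudogene copies, not analysed here. Promoter windows are from RefSeq. Within groups, chi-square over degrees of freedom was 7.93 to 15.2 for pairs of libraries, above counting noise.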

Additional observations from a re-analysis of the deposited data

How the results depend on the processing

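Over 19 alternatives (RLE factors, library totals, PGK1 left out of the scaling, 2 other filters, DESeq2, limma-voom, 3 fits on FPKM, the replicate block, each library left out, an adjusted p under 0.01 and, chosen after seeing the data, MSTRG entries left out), the count of members called higher was 23 each time, and those higher by at least 2-fold numbered 15 to 18. Members called lower numbered 3 to 5. Of 570 values of single members under these alternatives none changed direction, 7 lost a call and 5 gained one. The losses were those of SOAT1 (also at an adjusted p under 0.01) and MYLIP, and the gains those of SREBF2 and TM7SF2; for TM7SF2 they came in the 3 fits on FPKM. The median of the SREBP2 control genes, 0.26 with edgeR, was 0.17 on log2(FPKM + 1) with and without a filter and 0.18 on log2(FPKM + 0.1); the cause was not tested. Leaving out a library moved no member's fold by more than 1.19 times, the most for ACAT2 without WT replicate 2 (log2 fold change 1.77 in place of 2.02). With the replicate block, 23 members were called higher and 4 lower. The labels do not say whether same-numbered libraries were paired. Correlations of their deviations were -0.01, -0.01 and 0.10, which cannot settle that. The block changed no member's call. Genes of few counts, such as TM7SF2, are the least precise.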
